A study of Mus musculus with 49 samples.

Results

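The transcripts of 10 serotonin receptor genes were followed in mouse embryonic stem cells while these were driven toward neural fates and exposed to an antidepressant. The genes were taken by symbol from a count table of 52550 gene rows, each symbol matched 1 row, and no measured value entered the choice. They were Htr1a, Htr1b, Htr1d and Htr5a, whose proteins act through Gi/o, Htr2a, Htr2b and Htr2c, which act through Gq/11, Htr6 and Htr7, which act through Gs, and Htr3a, a subunit of a cation channel.

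Serotonin is made by a small set of hindbrain neurons and reaches most of the brain. Gi/o-coupled receptors lower cyclic AMP and often dampen firing or release, Gs-coupled receptors raise cyclic AMP, Gq/11-coupled receptors release calcium from internal stores, and the Htr3a channel depolarises the cell directly. Htr1a is carried both by target neurons and, as an autoreceptor, by the serotonin neurons themselves.

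The cells were ES-D3, an established mouse line, grown under the protocol known as the neural embryonic stem cell test, which screens compounds for harm to the developing nervous system. Polyadenylated RNA of 49 cultures was sequenced from strand-specific libraries, 7 in each of 7 groups. Control cells were sampled on day 0, day 7 and day 13. Cells given 2 µM fluoxetine, a selective serotonin reuptake inhibitor, and cells given 90 µM venlafaxine, an inhibitor of serotonin and noradrenaline reuptake, were each sampled on day 7 and day 13. All 7 groups are of the same line and carry no genetic change named in the labels. Exposure began on day 3, after embryoid bodies had formed, and the labels name no solvent. Doses were unequal, so the drugs are set side by side as given and not per mole. The labels describe 8 samples per condition, and 7 per group were analysed here. They do not say whether samples came from separate differentiations, so p-values measure only the spread between these samples, which may be technical.

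Libraries held 14059811 to 29225775 counts. The summed level of 6 pluripotency genes ran from 4939 to 5326 CPM (counts scaled to a common library size) on day 0 and from 98.8 to 227 CPM in day 13 controls. A sum over 12 general neuron genes ran from 277 to 289 CPM on day 0 and from 5094 to 6999.8 CPM in day 13 controls, so neuronal transcripts were present at the end of the protocol. In bulk RNA, fewer cells of a type and less RNA per cell cannot be told apart.

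A receptor was called too low to measure in a group when its median count over the 7 libraries was under 10. Htr1d and Htr2b were too low in all 7 groups. On day 0 only Htr3a reached the limit, with a median of 10 counts. On day 7 only Htr1b did, with medians of 14 counts in control, 18 in fluoxetine and 12 in venlafaxine. On day 13 the other 8 receptors were measurable in all 3 groups. Htr2a and Htr6 stood nearest to the limit there, with control medians of 17 and 11 counts.

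**Figure D1:**
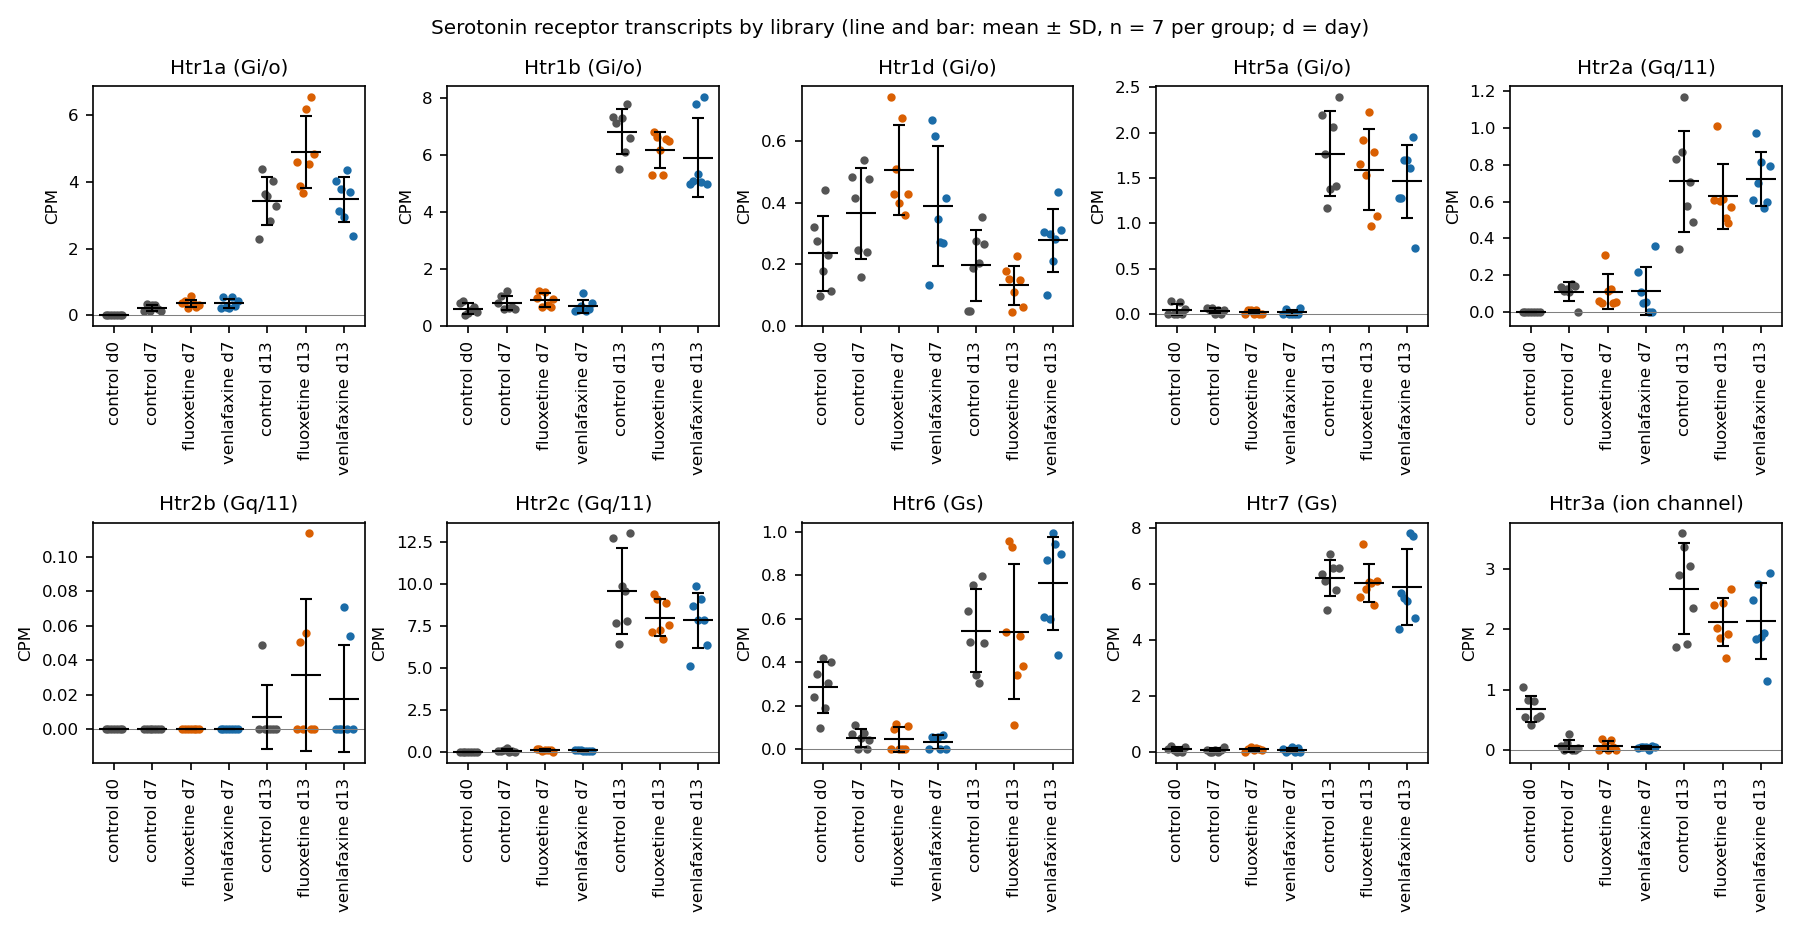
CPM of each receptor in every library (points), with the mean and SD of each group of 7, on linear axes that differ between panels. The day 13 group means stand above the day 7 means for 8 receptors, although single libraries of the days overlap for Htr2a and Htr6. Htr1d stays between 0.0464 and 0.742 CPM throughout, and Htr2b is at 0 in most libraries.

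Sequences before the start sites of a pair of receptors are shown because these receptors varied with different genes on day 13, as described further on. The bases come from the RefSeq promoter table of GRCm38.p6, which matched 9 of the 10 receptors (not Htr3a) and gave 11 windows. Both stretches end where the gene begins in the deposited table. Capitals mark a GC box, GGGCGG on either strand, a match that 32.7% of 32851 promoter windows of 250 bases held. The first lies at chr13:105443443-105443638, plus strand, and the second at chrX:146962263-146962512, plus strand.
Htr1a: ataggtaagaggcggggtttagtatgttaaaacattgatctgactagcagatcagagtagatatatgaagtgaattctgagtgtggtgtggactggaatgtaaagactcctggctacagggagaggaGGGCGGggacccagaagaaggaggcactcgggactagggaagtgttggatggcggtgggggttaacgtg
Htr2c: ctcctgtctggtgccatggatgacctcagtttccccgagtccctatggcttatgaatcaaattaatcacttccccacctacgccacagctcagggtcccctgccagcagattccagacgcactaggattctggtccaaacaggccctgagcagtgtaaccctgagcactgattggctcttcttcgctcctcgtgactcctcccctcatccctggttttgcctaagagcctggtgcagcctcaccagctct
The Htr1a window held 1 GC box and the Htr2c window none. Neither held an E-box (CANNTG, both strands), which 66.2% of the windows held, nor the letters GATAA on either strand, which 22.6% held. Of the full 250 bases, 50.4% were G or C before Htr1a and 55.6% before Htr2c. A match of letters is a description and not a binding site.

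In untreated cells the question was when each receptor transcript appeared. Between day 7 and day 13, all 6 receptors with enough counts for the test rose. Of the 16969 genes tested, 42.1% rose (edgeR quasi-likelihood test, Benjamini-Hochberg adjusted p under 0.05). Between day 0 and day 7, 2 of the 6 rose and 1 fell, against 45.3% and 43.4% of all genes. From day 0 to day 13 all 6 were higher, against 48.3% of all genes. Htr1a, Htr2c, Htr3a, Htr5a and Htr7 passed the count filter only through their day 13 libraries, so they had to be high there to be tested. The counts of receptors are therefore not read against these shares.

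Among the Gi/o-coupled receptors, Htr1a (chr13:105443639-105448122, plus strand, a single exon) was silent at the start, with 0 counts in the 7 day 0 libraries. Day 7 controls held 0.123, 0.191 and 0.338 CPM (lowest, median and highest), and day 13 controls 2.29, 3.57 and 4.37 CPM. No library of one day overlapped those of another. The rise from day 7 to day 13 was 3.86 ± 0.269 on the log2 scale (adjusted p = 5.45e-12, edgeR). Against the limit of 3 counts over the day 0 group, day 13 was at least 125-fold higher and day 7 at least 8.58-fold higher.

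Htr1b, the terminal autoreceptor of serotonin neurons and a presynaptic receptor on other neurons (chr9:81628291-81633828, minus strand), was present from the start. It held 0.389, 0.568 and 0.898 CPM on day 0, 0.604, 0.669 and 1.23 CPM on day 7, and 5.51, 7.12 and 7.77 CPM on day 13. Day 0 and day 7 overlapped, and the log2 difference of 0.43 ± 0.215 did not pass (adjusted p = 0.0611, edgeR). The day 13 libraries were all above the day 7 libraries, by 3.07 ± 0.161 on the log2 scale (adjusted p = 1.44e-15, edgeR). In the GENCODE vM21 annotation an exon of Htr1b overlaps the antisense gene D430036J16Rik over 729 bases. Whether the authors counted by strand is not given, so their reads may not be separable. D430036J16Rik itself held 0 to 4 counts in day 7 controls and 13 to 28 in day 13 controls, where Htr1b held 106 to 180.

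Htr5a, expressed mainly in brain (chr5:27842149-27855088, plus strand), had 5 counts in all over the day 0 group and 5 over the day 7 control group. Day 13 controls held 1.17, 1.77 and 2.39 CPM, above every earlier control library. The log2 difference from day 7 was 5.46 ± 0.676 (adjusted p = 9.23e-13, edgeR), on 279 counts against 5, a ratio of 52.1 with a counting interval of 22 to 162. Htr1d, which like Htr1b serves as a terminal autoreceptor, showed no such rise. Its group medians were 3 counts on day 0, 7 on day 7 and 5 on day 13, and the groups overlapped. With the count filter removed, its day 13 level was lower than on day 7 by 0.92 ± 0.378 on the log2 scale (adjusted p = 0.0329, edgeR), on 31 counts against 55.

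The Gq/11-coupled receptors differed most among themselves. Htr2c, whose transcript is edited and spliced in brain and which is found in choroid plexus and in neurons (chrX:146962513-147197277, plus strand), rose from silence. In day 13 controls it had the most counts of any of the 10, before scaling to exon length. It had 0 counts on day 0, 9 over the day 7 controls, and 144 to 293 in each day 13 control. Those day 13 libraries held 6.38, 9.55 and 13.0 CPM, and none came near the day 7 maximum of 0.214 CPM. The rise from day 7 was 7.14 ± 0.638 on the log2 scale (adjusted p = 4.54e-13, edgeR), and day 13 was at least 349-fold above day 0. Its call for day 7 against day 0 (adjusted p = 0.0271, edgeR) rested on those 9 counts, at least 2.27-fold over the limit.

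Htr2a, the cortical receptor bound by classical hallucinogens (chr14:74640840-74706859, plus strand), reached a lower level. It had 0 counts on day 0 and 16 over the day 7 controls, and day 13 controls held 0.344, 0.706 and 1.17 CPM. Day 13 stood above day 7 without overlap, but the gene was not tested in the course because too few libraries passed the count filter. Without that filter the difference from day 7 was 2.58 ± 0.43 on the log2 scale (adjusted p = 1.4e-07, edgeR), and day 13 was at least 25.4-fold above day 0. Htr2b, a receptor of gut, heart valves and meninges, had 0 counts in every library of days 0 and 7. On day 13 it had 1 count in all over the controls, 4 over fluoxetine and 3 over venlafaxine, which allows no comparison. In the GENCODE vM21 annotation an exon of Psmd1 on the opposite strand overlaps 252 of its bases.

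Of the Gs-coupled pair, Htr7, a receptor of thalamus, hypothalamus and hippocampus (chr19:35958734-36057507, minus strand), went from 9 counts over the day 0 group and 7 over the day 7 controls to 964 over the day 13 controls. Day 13 libraries held 5.06, 6.34 and 7.07 CPM, far above the day 7 maximum of 0.173 CPM. The rise was 6.84 ± 0.581 on the log2 scale (adjusted p = 1.53e-16, edgeR). Its spread between day 13 controls, a coefficient of variation of 10.5%, was close to the 8.52% that counting alone would give. Htr6, found mainly in striatum and other forebrain regions (chr4:139061108-139075570, minus strand), followed another course. It had 31 counts over the day 0 group, 8 over day 7 and 86 over day 13, and its day 13 libraries held 0.305, 0.491 and 0.794 CPM. Not tested at the usual filter, it was without the filter lower on day 7 than on day 0 by 2.16 ± 0.587 (adjusted p = 0.000239, edgeR) and then higher on day 13 by 3.17 ± 0.551 on the log2 scale (adjusted p = 1.17e-08, edgeR).

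Htr3a, the channel subunit (chr9:48899213-48911099, minus strand), shared that dip. Day 0 libraries held 0.419, 0.57 and 1.04 CPM, day 7 controls 0, 0.0432 and 0.268 CPM, and day 13 controls 1.71, 2.9 and 3.59 CPM. The 3 days did not overlap. It fell by 3.31 ± 0.643 on the log2 scale from day 0 to day 7 (adjusted p = 1.13e-06, edgeR), on 75 against 9 counts, and rose by 5.29 ± 0.617 from day 7 to day 13 (adjusted p = 3.47e-12, edgeR). It was the single receptor of the 6 tested that fell on the way to day 7.

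Levels can be set against each other between receptors only per length of exon. On day 13 in control cells, mean levels in CPM per kb were 1.83 ± 0.191 for Htr7, 1.44 ± 0.166 for Htr1b, 1.28 ± 0.36 for Htr3a, 1.03 ± 0.273 for Htr2c and 0.763 ± 0.157 for Htr1a (SD, n = 7). These 5 formed an upper tier in which each neighbour's range overlapped the next. A gap without overlap separated Htr1a from Htr5a at 0.329 ± 0.0866 CPM per kb. Htr2a at 0.239 ± 0.0921 and Htr6 at 0.233 ± 0.0816 CPM per kb overlapped Htr5a, and a second gap separated Htr6 from Htr1d at 0.0618 ± 0.0359 CPM per kb. Htr2b closed the order at 0.00329 CPM per kb, from a single count. With the longest transcript as the length in place of all exons, Htr2c moved to rank 2, since 9328 exon bases became 4883. On day 0 the order was led by Htr3a at 0.327 ± 0.105 CPM per kb, whose range lay above that of Htr1b at 0.131 ± 0.0388 CPM per kb. Day 7 controls were led by Htr1b at 0.171 ± 0.0519 CPM per kb, whose range overlapped that of Htr1d.

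**Figure D2:**
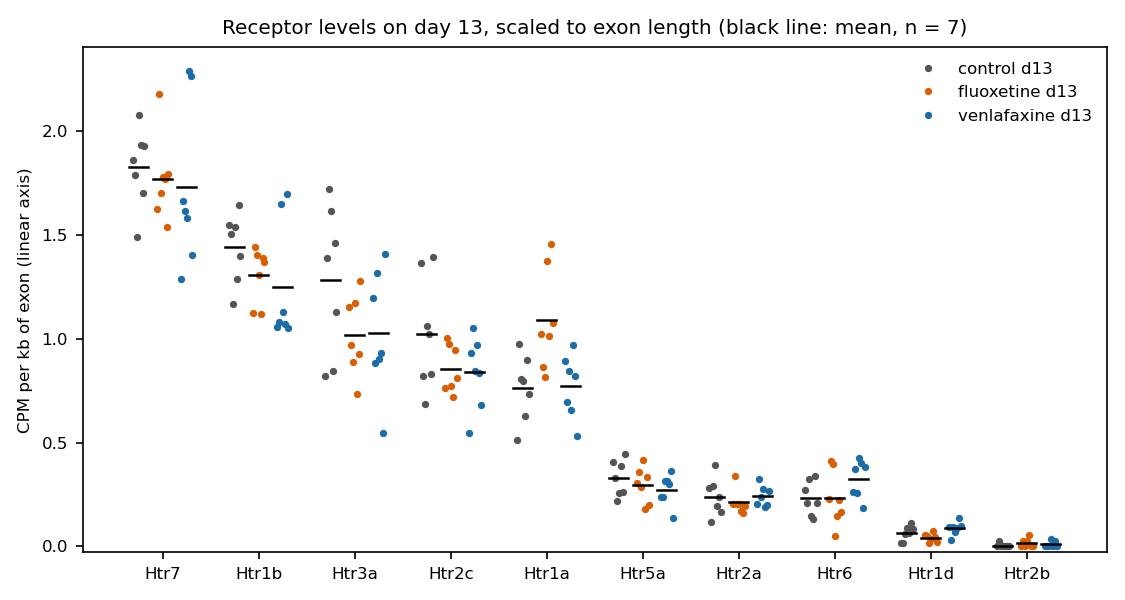
CPM per kb of exon on day 13 for each receptor (points are libraries, black lines are means of 7), ordered by the control mean. Htr7, Htr1b, Htr3a, Htr2c and Htr1a form the upper tier in all 3 groups, and Htr1a moves from rank 5 in control to rank 3 in fluoxetine, with ranges that overlap its neighbours.

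Genes of the pathways below the receptors were read from lists. Between day 7 and day 13 in control cells, 7 of 9 Gi/o signalling genes rose and 2 fell, where 42.1% of all genes rose and 40.9% fell, with the G protein genes Gnao1 at 3.19 ± 0.061 and Gnaz at 2.29 ± 0.0564 on the log2 scale. Of 9 Gq/11 signalling genes tested 7 rose and 2 fell, with the kinase genes Prkcb at 3.33 ± 0.0706 and Prkca at 2.33 ± 0.0564. All 12 Gs signalling genes rose, among them the phosphodiesterase Pde4b at 4.29 ± 0.102 and the adenylyl cyclase Adcy2 at 2.78 ± 0.0799. Median log2 differences were 2.34, 1.46 and 1.7 for these lists, beside 0.01 over all genes tested. Of 9 genes for receptor partners 7 rose and 2 fell, led by Dlg4, a scaffold of the postsynaptic density, at 2.63 ± 0.0599. Genes for making, moving or degrading serotonin split, with 5 of 9 higher and 3 lower, and Tph2, the enzyme of serotonin synthesis in neurons, at 6.69 ± 0.823.

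On day 7, Htr1b was the only receptor with enough counts to test against either drug. It was called in none of the 3 comparisons, where 0.0513% of 15601 genes were called for fluoxetine against control, 3.84% for venlafaxine against control and 0.147% for fluoxetine against venlafaxine. Its libraries held 0.664, 0.966 and 1.23 CPM in fluoxetine and 0.529, 0.609 and 1.16 CPM in venlafaxine, both overlapping the control. The log2 differences from control were 0.18 ± 0.213 (interval -0.26 to 0.62) and -0.19 ± 0.229 (interval -0.66 to 0.28), and no unadjusted p was under 0.05 by edgeR, DESeq2 or limma. Htr1a was too low for the fit on day 7. Its 50 counts in fluoxetine and 43 in venlafaxine stood beside 34 in control, all 7 libraries of each drug were above the control median, and the exact two-sided permutation test gave p = 0.0286 and 0.0606, unadjusted over the 10 receptors.

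On day 13 the question was whether 10 days of exposure altered any receptor. Fluoxetine against control called 0 of the 8 receptors tested with edgeR, where 0.116% of 16397 genes were called. Of the 8, 1 had an unadjusted p under 0.05, Htr1a. So did 2312 of the 16397 genes, and 1 of 8 is near that share. DESeq2 called that 1 receptor and 423 of all genes, and limma called no receptor and 25 of all genes. Venlafaxine against control also called 0 of 8, where 22.9% of genes were called. None of the 8 had an unadjusted p under 0.05, where 6312 of all genes had one. DESeq2 and limma called none either, where they called 4353 and 3866 of all genes. Fluoxetine against venlafaxine called 1 of 8, Htr1a, where 12.1% of genes were called, so 1 of 8 is near the share over all genes. Both drugs share the same 7 control libraries, so the contrasts with control are not independent.

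Htr1a was highest in fluoxetine. Day 13 libraries held 3.66, 4.59 and 6.54 CPM (lowest, median and highest) in fluoxetine, 2.29, 3.57 and 4.37 CPM in control and 2.38, 3.69 and 4.35 CPM in venlafaxine. Counts were 76 to 176, 47 to 96 and 61 to 92. All 7 fluoxetine libraries lay above the control median and 6 of 7 above the venlafaxine median, although the groups overlapped. Fluoxetine replicates 1, 5, 6, 7 and 8 stood above every control and venlafaxine library. Replicates 5 and 7 were the highest, at 6.17 and 6.54 CPM.

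Against venlafaxine, Htr1a was 0.51 ± 0.159 higher in fluoxetine on the log2 scale (95% interval 0.18 to 0.84, adjusted p = 0.0413, edgeR), or 1.43-fold. The exact two-sided permutation test of mean log2 CPM gave an unadjusted p = 0.00932. Against control the difference was 0.53 ± 0.159 (interval 0.20 to 0.86, 1.44-fold, adjusted p = 0.119, edgeR; exact unadjusted p = 0.00758), which did not pass. DESeq2 gave adjusted p = 0.0497 and an edgeR fit of all 49 libraries 0.0458. Venlafaxine and control differed by 0.02 ± 0.162 (interval -0.32 to 0.35).

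The call against venlafaxine was close to the threshold. Over fits that each left out 1 of the 21 day 13 libraries, the log2 difference ran from 0.42 to 0.58 and the adjusted p from 0.0277 to 0.102 (edgeR), and the call was lost in 6 fits, those without fluoxetine replicate 5 or 7 or venlafaxine replicate 1, 2, 4 or 8. It was also lost without the 6 libraries that stood apart in earlier work on these data, on day 13 control replicate 4, fluoxetine replicate 5 and venlafaxine replicate 1 (0.49 ± 0.172, adjusted p = 0.118), and with no count filter, where more genes were tested (adjusted p = 0.0572, edgeR).

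**Figure D3:**
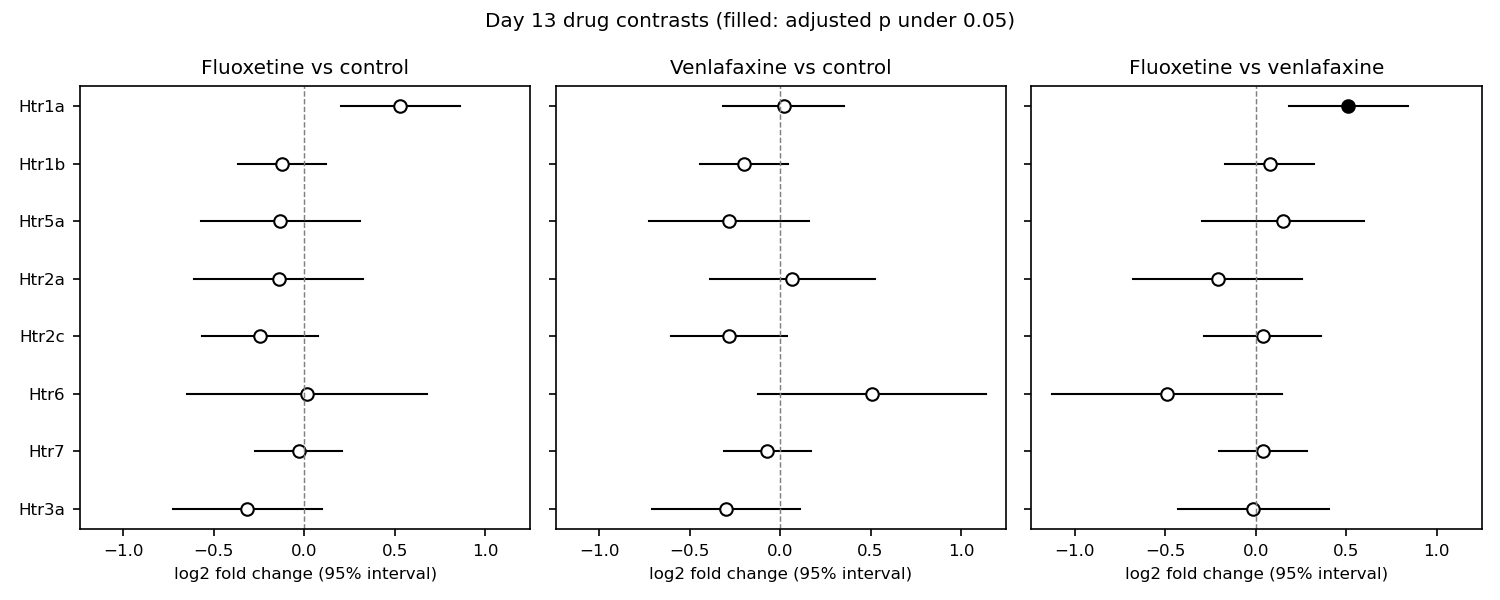
Log2 fold changes of the 8 receptors tested on day 13, with 95% intervals, in the 3 contrasts of 7 against 7 libraries. The filled point marks the single call, Htr1a in fluoxetine against venlafaxine at 0.51; every other interval drawn includes 0, except that of Htr1a in fluoxetine against control at 0.20 to 0.86, which did not pass adjustment.

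Like Htr1a, the summed genes that mark serotonin neurons had their highest median in fluoxetine. The summed level of 8 such genes, none of them at 0, ran from 212 to 385 CPM in fluoxetine (median 275), from 188 to 226 CPM in control (median 197) and from 168 to 280 CPM in venlafaxine (median 195). Against venlafaxine 5 of the 8 were higher in fluoxetine and none lower, where 5.14% of all genes were higher. They included the transcription factor gene Gata3 at 0.62 ± 0.154 (adjusted p = 0.0203, edgeR) and the vesicular transporter Slc18a2 at 0.98 ± 0.256 (adjusted p = 0.0232, edgeR). Tph2 was 0.88 ± 0.252 higher (adjusted p = 0.0324, edgeR). The log2 difference was above 0 for 7 of the 8. DESeq2 and limma each called 6 of the 8, where they called 2737 and 2039 of all genes. Without the 6 libraries apart edgeR called 0 of the 8 and 236 of all genes. In venlafaxine against control edgeR called 1 of the 8 higher and none lower, where 11.6% of all genes were higher and 11.3% lower. There 3 of the 8 had a log2 difference above 0, and the median was -0.07. In fluoxetine against control edgeR called none of the 8, limma none and DESeq2 3, where they called 19, 25 and 423 of 16397 genes. An unadjusted p under 0.05 was found for 7 of the 8 and for 2312 of all genes. In that contrast 7 had a log2 difference above 0, and the median was 0.77, beside 0.00 over all genes; Tph2 was at 0.76 ± 0.25 (adjusted p = 0.151, edgeR). The part of this shift in the Htr1a difference was not tested.

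Htr1a also varied with these genes from library to library within groups. After removal of the group means over the 21 day 13 libraries, the 3 genes most like Htr1a among 13135 with a mean of at least 1 CPM were Tph2 (Pearson's r = 0.884, Spearman's rho = 0.904), Gata2, a transcription factor of serotonin neurons and other cells (r = 0.871, rho = 0.864), and Baiap3, a gene of dense-core vesicle traffic (r = 0.86, rho = 0.886). Without the 2 libraries farthest from the median of the other gene, r was 0.865, 0.87 and 0.829. Fluoxetine replicates 5 and 7, the highest in Htr1a, held 7.56 and 8.43 CPM of Tph2, where control libraries held 2.24 to 5.06 CPM. Over all 49 libraries, where the change between days dominates, the closest genes were Gata3, Magel2 and Aqp4 (r from 0.983 to 0.986). These correlations are descriptions over libraries that share a protocol, and the genes were ranked on the same data.

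**Figure D4:**
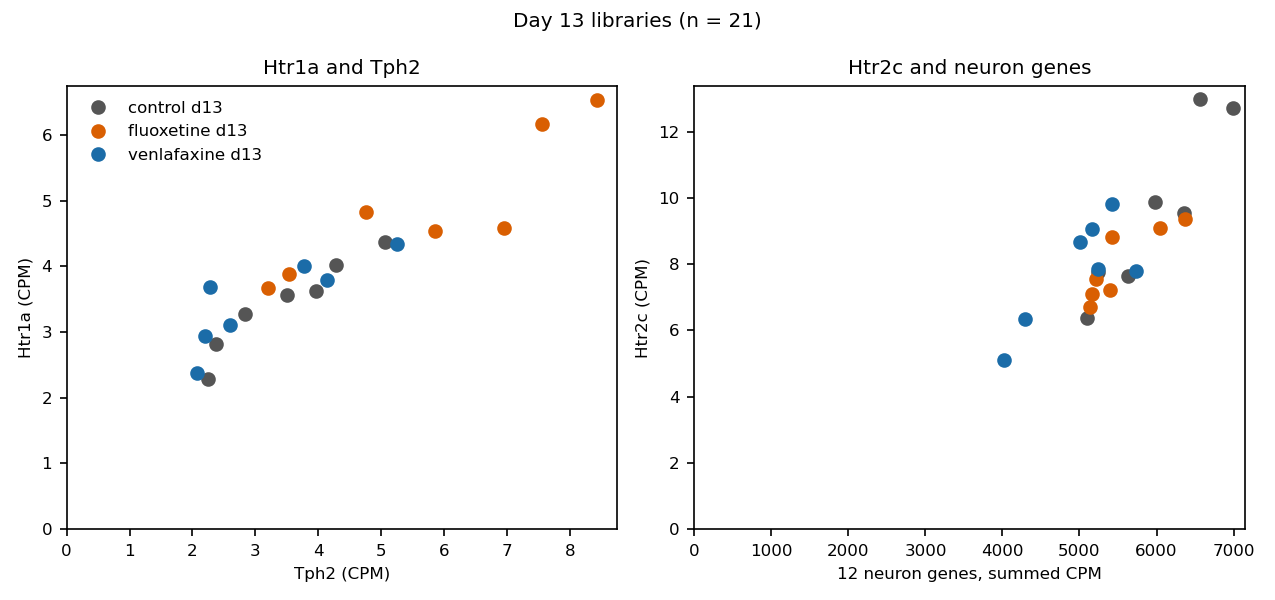
CPM in each of 21 day 13 libraries. Left, Htr1a against Tph2, where the fluoxetine libraries with 6.17 and 6.54 CPM of Htr1a also have 7.56 and 8.43 CPM of Tph2; right, Htr2c against the summed level of 12 neuron genes, where the venlafaxine library with the lowest neuron sum (4016 CPM) has 5.11 CPM of Htr2c.

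The other Gi/o-coupled receptors showed no call for either drug on day 13. Htr1b held 5.28, 6.47 and 6.81 CPM in fluoxetine and 4.97, 5.1 and 8.03 CPM in venlafaxine. All 7 fluoxetine libraries and 5 of 7 venlafaxine libraries lay below the control median of 7.12 CPM, yet the groups overlapped. The log2 differences from control were -0.13 ± 0.117 (interval -0.37 to 0.12) and -0.20 ± 0.117 (interval -0.44 to 0.04). Htr5a held 0.965, 1.65 and 2.22 CPM in fluoxetine and 0.725, 1.61 and 1.95 CPM in venlafaxine, with differences of -0.13 ± 0.212 and -0.28 ± 0.213. Htr1d stayed too low, at medians of 3 counts in fluoxetine and 6 in venlafaxine. All 7 of its fluoxetine libraries were below the venlafaxine median of 0.3 CPM, with an exact unadjusted permutation p = 0.0128 on 20 against 42 counts.

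For the Gq/11-coupled receptors, Htr2c held 6.7, 7.55 and 9.38 CPM in fluoxetine and 5.11, 7.86 and 9.83 CPM in venlafaxine. All 7 fluoxetine and 6 of 7 venlafaxine libraries were below the control median of 9.55 CPM, and the ranges overlapped, since the controls ran from 6.38 to 13.0 CPM. The log2 differences were -0.24 ± 0.154 (interval -0.56 to 0.08) and -0.28 ± 0.154 (interval -0.60 to 0.04). The neuron sum stood at a median of 5976 CPM in control, 5393 CPM in fluoxetine and 5163 CPM in venlafaxine, and 9 of its 12 genes fell in venlafaxine, where 11.3% of all genes fell and 11.6% rose, led by Nefl at -0.40 ± 0.0872 (adjusted p = 0.00962, edgeR). Other lists moved in that contrast too. GABAergic interneuron genes fell in 5 of 7, while 5 of 6 cell cycle genes and 4 of 6 oligodendrocyte lineage genes rose, and of 6 astrocyte genes 4 rose and 1 fell. The part of these shifts in the receptor values was not tested. In fluoxetine edgeR and limma called none of the 12, DESeq2 called 1, and 2 had an unadjusted p under 0.05. Of all 16397 genes, DESeq2 called 423 there and 2312 had such a p. Htr2a held 0.483, 0.603 and 1.01 CPM in fluoxetine and 0.567, 0.699 and 0.969 CPM in venlafaxine, with differences of -0.14 ± 0.226 and 0.07 ± 0.22.

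Within groups, Htr2c followed the neuron sum (r = 0.881, rho = 0.862 over 21 libraries, and r = 0.819 without the 2 farthest). So did Htr5a (r = 0.709, rho = 0.743, and r = 0.726 without the 2 farthest). Htr7 did so less firmly (r = 0.701, rho = 0.66, and r = 0.569 without the 2 farthest). Htr1a did not share that sign (r = -0.335), and Htr3a ran the other way (r = -0.643, rho = -0.618). For each of Htr2c, Htr5a, Htr7 and Htr3a another list had an r larger in size than that of the neuron list. Htr2c had r = 0.875 against the GABAergic list and -0.807 against the cell cycle list. Htr5a had -0.829 against the cell cycle list and 0.775 against the GABAergic list. Htr1a had r = 0.827 against the list for handling serotonin, which shares genes with the serotonergic list. All these sums come from the same libraries as the receptors and share their depth. The spread of Htr2c between control libraries was a coefficient of variation of 26.6%, against 6.87% from counting alone. Its closest gene was Kcnq3, a neuronal potassium channel (r = 0.926), then Cep170 and Fbxo11. The closest to Htr5a were Fam234b, Snx30 and Dnmt3a (r from 0.894 to 0.903). Skap2, Epdr1 and Tmem243 came closest to Htr3a (r from 0.815 to 0.834), and Mb21d2, Zfp963 and Abcb10 to Htr7 (r from 0.819 to 0.835). Htr1b, Htr2a and Htr6 had no gene above r = 0.767.

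**Figure D5:**
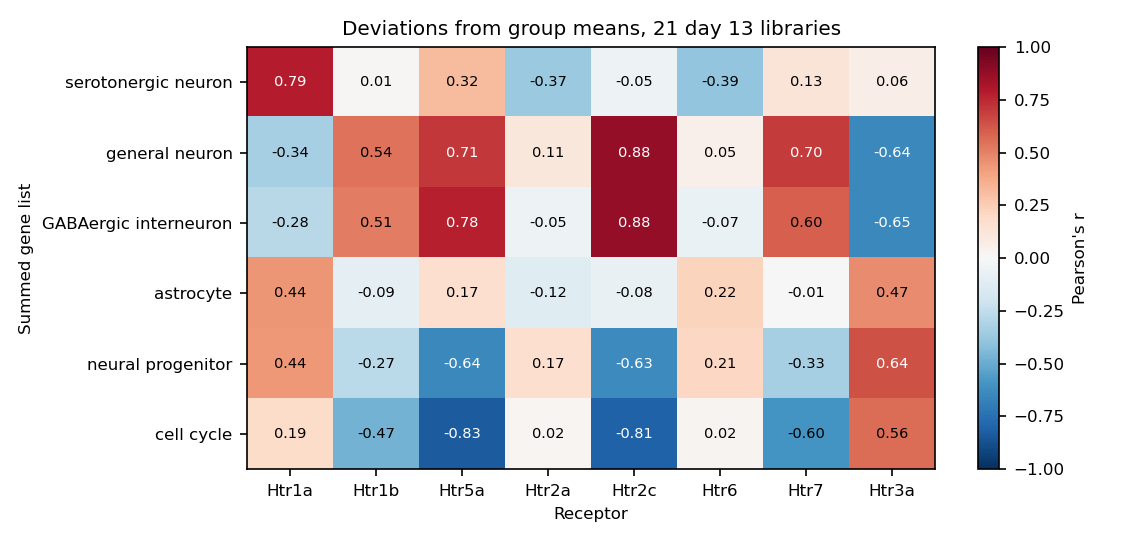
Pearson's r over 21 day 13 libraries between log2 CPM of each receptor and the log2 summed CPM of 6 of the gene lists, both as deviations from the group mean. Htr1a has 0.788 against the serotonergic list. Htr2c has 0.881 against the general neuron list, 0.875 against the GABAergic list and -0.807 against the cell cycle list, and Htr3a is negative against the general neuron list (-0.643).

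Of the Gs-coupled pair, Htr7 lay near its control level with either drug. It held 5.24, 6.02 and 7.41 CPM in fluoxetine and 4.38, 5.49 and 7.79 CPM in venlafaxine, beside 5.06 to 7.07 CPM in control. The log2 differences were -0.03 ± 0.117 (interval -0.27 to 0.21) and -0.07 ± 0.117 (interval -0.31 to 0.17). Htr6 held 0.111, 0.52 and 0.958 CPM in fluoxetine and 0.434, 0.867 and 0.991 CPM in venlafaxine. In venlafaxine 6 of 7 libraries lay above the control median of 0.491 CPM, at a log2 difference of 0.51 ± 0.304 (interval -0.12 to 1.14, adjusted p = 0.218, edgeR). Control libraries held 5 to 20 counts of it and venlafaxine libraries 8 to 28.

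The channel subunit Htr3a held 1.53, 2.02 and 2.67 CPM in fluoxetine and 1.14, 1.94 and 2.94 CPM in venlafaxine. All 7 fluoxetine and 6 of 7 venlafaxine libraries were below the control median of 2.9 CPM, with overlap. The differences of -0.32 ± 0.198 (interval -0.73 to 0.10) and -0.30 ± 0.197 (interval -0.71 to 0.11) did not pass. In fluoxetine against venlafaxine, the 7 receptors other than Htr1a had log2 differences from -0.49 ± 0.307 for Htr6 to 0.15 ± 0.216 for Htr5a.

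Whether a drug acted differently on the 2 days was tested as an interaction over 42 libraries. None of the 8 receptors was called by edgeR for fluoxetine, where 0.277% of 16964 genes were called, nor for venlafaxine, where 12.4% were. No unadjusted p was under 0.05, where 2200 of all genes had one for fluoxetine and 4675 for venlafaxine. Of the 8, only Htr1b was measurable on day 7, and the other 7 passed the filter through day 13 with few day 7 counts to compare, so the absence of calls says little about them. For Htr1a the fluoxetine effect on day 13 minus that on day 7 was -0.07 ± 0.352 (interval -0.78 to 0.64) and the venlafaxine one -0.56 ± 0.361 (interval -1.29 to 0.17).

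Signalling genes below the receptors were then read from the same lists. In fluoxetine against control on day 13, 0 of 9 Gi/o, 0 of 9 Gq/11 and 0 of 12 Gs signalling genes passed in edgeR, where 0.116% of all genes were called. Unadjusted p-values under 0.05 numbered 3, 1 and 5, where 2312 of 16397 genes had one. DESeq2 called 1 in each list and 423 of all genes, and limma none in the lists and 25 of all genes. The smallest adjusted p-values belonged to Adcy1 (-0.55 ± 0.123, adjusted p = 0.0597, edgeR) and to Rgs4, which limits Gi/o and Gq/11 signals (-0.94 ± 0.215, adjusted p = 0.0604, edgeR). Venlafaxine lowered 6 of 12 Gs signalling genes and raised none, beside 11.3% of all genes lower and 11.6% higher, with Gnas at -0.15 ± 0.0346 and Adcy9 at -0.24 ± 0.0668. In that contrast 2 of 9 Gi/o genes were lower and 1 higher, and 2 of 9 Gq/11 genes were lower and 1 higher.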

How the data were processed

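Raw counts per gene, 1 column per library, were deposited. The authors' counting ran through STAR 2.6.0b and featureCounts 1.6.1 with GRCm38.p6, after bcl2fastq 2.19.0.316 and FastQC 0.11.5, per the submitters' processing notes. The sources used here do not give the annotation release, the strand setting or the rule for reads matching more than 1 gene. Rows were tied to GENCODE vM21 by identifier (52403 of 52550) for exon lengths. The counts were fitted in R 4.3.3 with edgeR 4.0.16 (TMM scaling, filterByExpr on the groups, quasi-likelihood F test with robust spread), and p-values were adjusted over all genes tested. Each fit took the 21 libraries of a day, the 21 control libraries, or the 42 of days 7 and 13. Errors of log2 differences are standard errors, and those of levels SD. CPM used TMM-scaled totals, and log2 CPM a prior count of 2. Counting intervals are 95% and, like the 3-count limit, cover counting error only. DESeq2 1.42.0 and limma 3.58.1 were alternatives. Fits were tested on simulated data. Every receptor is named, and from each list the 2 genes with the smallest p, with Tph2 added after its values were seen. The receptors and lists were chosen with earlier results of these data known. The result of 1 marker list is not reported here.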

Additional observations from a re-analysis of the deposited data

Results flagged for a closer look

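In each group where a receptor was measurable, the highest and lowest libraries were checked for a gap to the next library that passes Dixon's 95% limit for 7 values. Over 28 receptor and group pairs, 2 were marked, and chance marks about 1 in 20. Both lay in fluoxetine replicate 2 of day 13. Htr2a was at 1.01 CPM there, on 20 counts, with the next library at 0.611 CPM. Htr7 was at 7.41 CPM, on 147 counts, with the next at 6.09 CPM. Neither receptor was called in any drug contrast. For no receptor was the interaction of drug and day called.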

How the results depend on the processing

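The number of receptors called moved by more than 1.5 times in 3 comparisons. Fluoxetine against control on day 13 went from 0 to 1 (Htr1a) with DESeq2's Wald test and with all 49 libraries in the fit. Fluoxetine against venlafaxine on day 13 went from 1 to 0 with no count filter (adjusted p = 0.0572, more genes tested), with the replicate block (0.0749) and without the 6 libraries apart (0.118), and ran from 0 to 1 over the leave-one-out fits, which were added after seeing the data. Day 7 against day 0 controls went from 3 to 6 with no filter, to 5 with all 49 libraries and to 0 with only the groups compared, where low receptors left the test. Smaller moves were from 6 to 9 for day 13 against day 7 and from 6 to 8 for day 13 against day 0 with no filter, to 8 in both with all 49 libraries, and for day 7 against day 0 from 3 to 2 with limma and to 4 with the block. The cause of the other moves was not tested.

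Differences near 0 changed sign, none of them called. For Htr6 in fluoxetine against control the log2 difference became -0.11 with limma, -0.029 with the replicate block and -0.12 as a difference of mean log2 CPM, and -0.16 to 0.18 with 1 library left out. Htr7 in that contrast ran from -0.086 to 0.00093. In venlafaxine against control Htr1a became -0.044 with the block and -0.0014 without the 6 libraries (-0.053 to 0.10 leaving out 1), and Htr2a ran from -0.041 to 0.19. In fluoxetine against venlafaxine Htr3a became 0.011 with limma, 0.15 with the block and 0.023 as a difference of means (-0.12 to 0.084 leaving out 1). There Htr2c became -0.017 and Htr7 -0.021 without the 6 libraries (-0.038 to 0.098 and -0.020 to 0.12 leaving out 1). Htr5a between days 0 and 7 became 0.080 with the block. In the venlafaxine interaction Htr1b became 0.025 without the 6 libraries, Htr2a 0.32 with limma, and Htr3a -0.57 with limma, -0.053 with the block and -0.73 without the 6 libraries.

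The labels do not say whether replicate numbers pair the samples. Same-numbered samples deviated together (r over 0.1) in 0 of 7 pairs for fluoxetine against control on day 13 and in 4 of 6 for fluoxetine against venlafaxine. With the replicate block, genes called fell from 19 to 0, from 3753 to 282 for venlafaxine against control, and from 1986 to 176 for fluoxetine against venlafaxine. Over the alternatives, genes called ran from 0 to 575, 282 to 5164 and 176 to 3467 in those contrasts. On day 7 they ran from 5 to 57 for fluoxetine (8 in the main test), 290 to 850 for venlafaxine (599) and 8 to 112 between the drugs (23), and for the interactions from 4 to 181 (47) and 1186 to 2587 (2107). Depth limits Htr1d, Htr2b and, before day 13, most receptors.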

Other observations

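Other serotonin receptor genes in the table were also too low to measure. Htr1f had 18 counts over all 49 libraries and Htr3b 44, with at most 3 in a library. Htr5b, a relative of Htr5a, had 136 counts in all, with medians of 7 on day 0, 1 in day 7 controls and 3 in day 13 controls. Htr1a and Htr2c, both higher on day 13, did not rise and fall together across day 13 libraries after removal of group means (r = -0.28 over 21 libraries), while Htr2c and Htr5a had r = 0.588 and Htr2c and Htr7 r = 0.557. The library of control replicate 1 held the lowest control level of Htr1a, 2.29 CPM, beside 12.7 CPM of Htr2c and the highest neuron sum, 6999.8 CPM.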
